A study of Mus musculus with 2 samples.

Results

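Cycling epithelial cells of mouse lung organoids were described in 2 droplet-based single-cell RNA sequencing (scRNA-seq) libraries, 1 from control cultures and 1 from cultures given the cytokine IL-1β. A cell barcode was counted as epithelial when its summed UMIs of Epcam, Cdh1, Cldn3, Cldn7 and Krt18 exceeded its summed UMIs of the stromal genes Col1a2, Col3a1, Sparc and Dcn, where a UMI (unique molecular identifier) marks 1 captured RNA molecule. It was counted as cycling when Mki67, Top2a, Cdk1, Birc5 and Ube2c together had 3 or more UMIs. By this rule 67 of 5167 barcodes were cycling epithelial cells, 59 of 2101 in the control library and 8 of 3066 in the IL-1β library. They were compared with the epithelial barcodes of the same library that had no UMI of the 5 cycling genes, 876 in control and 2224 in IL-1β, which are called noncycling here. The remaining 94 and 148 epithelial barcodes, with 1 or 2 such UMIs, entered neither class.

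The organoids were started from lineage-labelled alveolar type 2 (AT2) cells of C57BL/6 mice with the genotype SPC-CreERT2;R26RtdTomato. In these mice tamoxifen switches on the tdTomato reporter wherever the promoter of Sftpc (SPC), the surfactant protein C gene, drives Cre, so the label marks cells that expressed Sftpc at that time and their progeny. Both libraries share these alleles, the tamoxifen and the culture system, in which the sorted labelled cells grew in Matrigel beside stromal cells expanded from lung. The control cultures received PBS and the others IL-1β, at 10 ng/mL by the legend or 20 ng/mL by the methods of the study, and the culture time is given as 2 weeks in the series text and as day 21 in the legend. Mice of 6 to 10 weeks were used for most experiments of the study, and how old the mice of these libraries were or how many contributed to each library is not given in the sources used here. On the stromal side of the rule lay 1053 barcodes in control and 650 in IL-1β, and 19 and 36 barcodes were tied. These are counts by the rule and not of stromal cells. Without Sparc in the rule, 264 control and 187 IL-1β barcodes of these counted as epithelial. The libraries held 33965848 and 41220175 UMIs, with a median of 14613 and 11496.5 UMIs a barcode. With 1 library a condition there was no test between conditions, and barcodes of a library are not replicates, so the 95% intervals below cover counting error only.

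AT2 cells make surfactant and are the stem cells of the alveolus: they are largely quiescent in the healthy adult lung, divide after injury, and give rise to flat alveolar type 1 (AT1) cells. A dividing cell licenses its replication origins with the Mcm helicase, copies its DNA once under cyclin E and cyclin A, and then separates the chromosomes under cyclin B with Cdk1, until the anaphase-promoting complex (APC/C) with its activator Cdc20 marks the cyclins for destruction. Genes of DNA synthesis are mostly driven by E2F factors, while genes of mitosis peak later under the MuvB complex with Mybl2 and Foxm1.

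The 5 genes of the rule cover late steps of this cycle: Mki67 coats mitotic chromosomes, Top2a untangles DNA, Cdk1 is the mitotic kinase, Birc5 (survivin) belongs to the chromosomal passenger complex, and Ube2c is the ubiquitin-conjugating enzyme of the APC/C. In GRCm38 with the GENCODE annotation they lie at chr7:135689784-135716361 (Mki67, minus strand), chr11:98992943-99024189 (Top2a, minus strand), chr10:69335146-69352938 (Cdk1, minus strand), chr11:117849251-117855743 (Birc5, plus strand) and chr2:164769898-164778822 (Ube2c, plus strand). The 59 control members had 3 to 106 UMIs of them with a median of 15, 37 members had 10 or more, and 28 had a UMI of all 5 genes. Birc5 was detected in 53 of the 59, Ube2c in 50, Mki67 in 47, and Top2a and Cdk1 in 42 each. The sums of the 8 IL-1β members were 136, 68, 50, 8, 8, 5, 4 and 3, and these members are numbered 1 to 8 in that order below. Most control members thus lay well above the threshold, while 5 of the 8 IL-1β members lay within 5 UMIs of it.

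At the threshold the control values ran on without a gap. The 15 control epithelial barcodes with 2 UMIs had a median of 17.9 UMIs per 10000 for 67 mitotic genes that the rule did not use, the 7 with 3 UMIs had 18.0, and the 6 with 4 UMIs had 36.3. In IL-1β the 5 barcodes with 2 UMIs had a median of 10.9 and the only barcode with 3 UMIs had 36.4. The barcodes just inside and just outside the rule were thus alike in control, and those far above it carry most of what follows.

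Sftpc, the AT2 marker that defined the lineage label, was measured in each member as a share of its UMIs. In the 59 control members the lowest share was 2.64%, the median 7.02% and the highest 14.6%, against a lowest of 0.194%, a median of 9.77% and a highest of 19.5% in noncycling epithelial barcodes and a median of 0.348% in noncycling stromal-side barcodes. None of the 59 control members lay under 2%, whereas 29 of the 876 noncycling barcodes (3.31%) did. The control members therefore all held Sftpc above the stromal-side median and within the range of the noncycling epithelial barcodes. Sftpc alone does not part the sides, since 123 control barcodes on the stromal side or tied, 3 of them cycling, also had 2% or more. The 4 stromal genes of the rule, which the selection itself keeps low, had a median of 3.25 UMIs per 10000 in members and 3.22 in noncycling epithelial barcodes.

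In the IL-1β members, numbered as above, Sftpc made up 0.971%, 0.207%, 0.313%, 0.310%, 0.413%, 3.59%, 1.52% and 3.44% of the UMIs, against a median of 6.06% in the noncycling epithelial barcodes of that library. The share in cells 2 to 5 was at or below the median of noncycling stromal-side barcodes, 0.422%, a level that 66 of 2224 noncycling epithelial barcodes (2.97%) shared. Cells 2 to 5 had 86, 41, 39 and 10 UMIs of the epithelial rule genes against 6, 5, 5 and 3 of the stromal ones. They were thus epithelial by the rule but held no more Sftpc than the stromal-side median, so Sftpc did not mark these 4 cells as AT2 cells at harvest. Their origin is not read from this, since the lineage label also marks progeny and was not examined here.

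**Figure D1:**
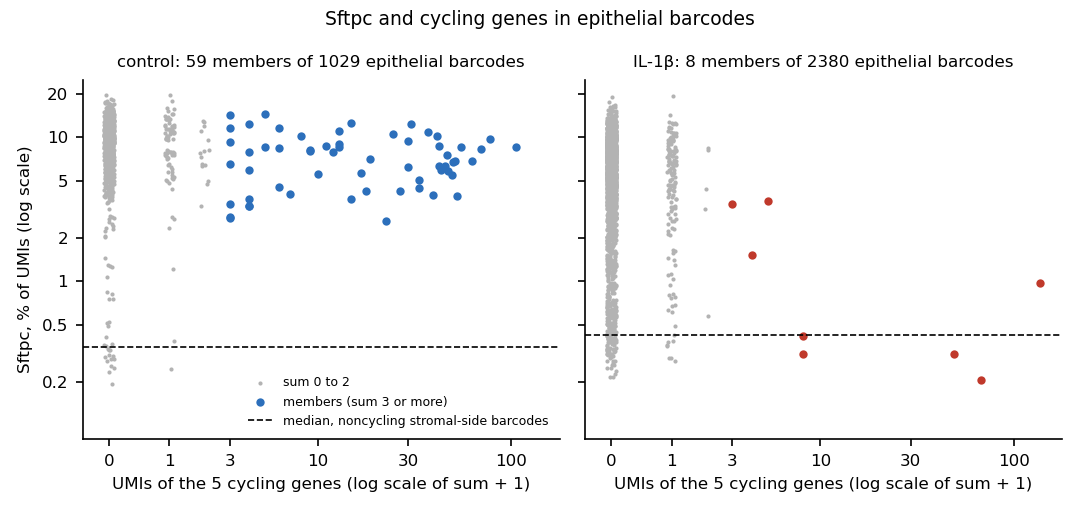
Sftpc as a percentage of all UMIs (y axis, log scale) against the summed UMIs of the 5 cycling genes plus 1 (x axis, log scale) for each epithelial barcode of the control and IL-1β libraries; grey points have sums of 0 to 2, coloured points are the cycling members and the dashed line is the median of noncycling stromal-side barcodes. All 59 control members lie above 2%, while 6 of the 8 IL-1β members lie below it and 4 of them at or under the dashed line.

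Members were deeper than noncycling barcodes of their own library. Control members had a median of 21498 UMIs (range 6224 to 66244) and 4680 genes, against 13985.5 UMIs and 3403.5 genes in noncycling epithelial barcodes. IL-1β members had a median of 16366.5 UMIs (7996 to 35323) and 4031.5 genes, against 11319.5 UMIs and 3172.5 genes. A fixed threshold in UMIs is easier to reach at greater depth, so shares were also taken after thinning every barcode to 4000 UMIs. The doublet score of scrublet placed 3 of the 59 control members and none of the 8 IL-1β members among the highest 5% of their library.

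Cycling cells made up a larger share of the epithelial barcodes in control than in IL-1β. The share was 5.73% in control (59 of 1029, exact 95% interval 4.39% to 7.33%) and 0.336% in IL-1β (8 of 2380, 0.145% to 0.661%), a difference of 5.40 percentage points (4.09 to 7.0). After thinning it was 3.94% (37 of 940, 2.79% to 5.39%) and 0.180% (4 of 2228, 0.0489% to 0.459%). With 5 or more UMIs as the rule, 46 control (4.47%) and 6 IL-1β barcodes (0.252%) remained. The ratio of the shares was 17.1 as deposited and 21.9 after thinning. With 1 or more UMIs after thinning, a threshold added after seeing the data, it was 4.04 (7.98% and 1.98%). Each of these ratios sets 1 library against 1 library. On the stromal side of the same libraries 24 of 1053 barcodes (2.28%, 1.47% to 3.37%) and 6 of 650 (0.923%, 0.340% to 2.00%) met the cycling threshold, a difference of 1.36 points (0.0486 to 2.56). After thinning 3 of 1068 and 1 of 719 stromal-side barcodes did, a difference of 0.142 points (-0.529 to 0.696). At 5 or more UMIs the difference was 0.701 points (-0.118 to 1.47), and at 2 or more UMIs it was 4.09 points (2.08 to 6.0). The size of the stromal-side difference thus depended on the setting. These intervals cover counting error within 1 library a condition, so no difference between conditions is read from them.

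**Figure D2:**
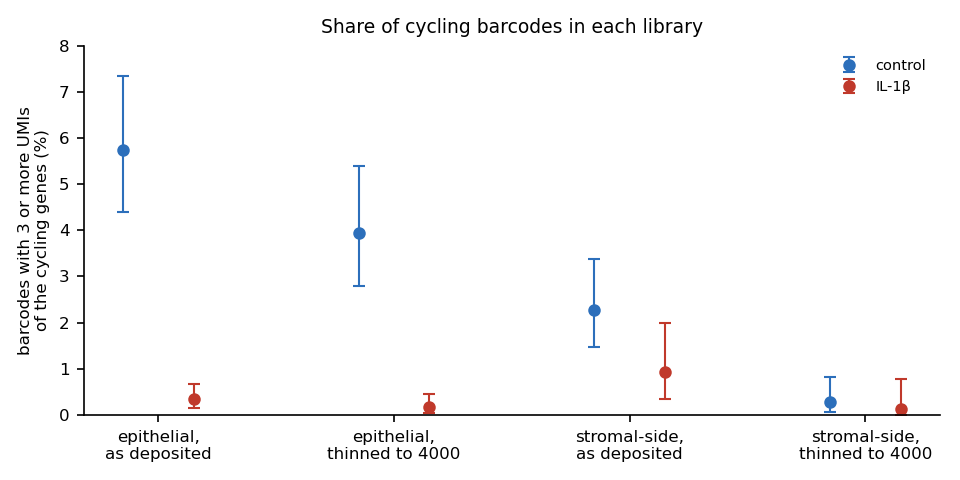
Share of barcodes with 3 or more UMIs of the 5 cycling genes (y axis, percent) among epithelial and stromal-side barcodes of both libraries, as deposited and after thinning to 4000 UMIs; points are shares of 1 library each and bars are exact 95% binomial intervals. The control epithelial share (5.73% as deposited, 3.94% thinned) lies above the IL-1β epithelial share (0.336%, 0.180%), and the bars cover counting error only.

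To describe the members beyond the rule, UMIs were summed over all members and over all noncycling epithelial barcodes of a library and expressed per 1000000 UMIs (CPM), and a gene with 50 or more UMIs over both classes was counted as higher or lower at a ratio of 2 or more. In control 576 of 9790 genes (5.88%) were higher and 411 (4.2%) lower in cycling cells, with a median log2 ratio of 0.06. In IL-1β 1791 of 11043 (16.2%) were higher and 1173 (10.6%) lower, with a median of 0.35. Cycling genes set this contrast, so the counts for cycle genes describe what came along with the rule and nothing is read from them against these percentages. The 8 IL-1β members hold 162701 UMIs together and the 59 control members 1381622, so counting error is wider in IL-1β.

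Genes of origin licensing and DNA synthesis, none of which was in the rule, were higher in cycling cells in both libraries. In control 36 of the 37 such genes tested were higher and none lower, with a median log2 ratio of 3.03, and the 41 genes of both lists together had 2272 CPM against 269. In IL-1β all 30 tested were higher, with a median of 2.76 and 2194 CPM against 283. Among the licensing genes, the helicase subunit Mcm6 had 63.0 CPM in control members and 7.03 in noncycling barcodes, 8.96 times as much, and 67.6 against 7.28 CPM in IL-1β. Mcm5 of the same helicase had 57.9 against 2.11 CPM in control, a ratio of 27.5 (17.6 to 44.2), and Gins2, which completes the active helicase, 57.2 against 1.25, a ratio of 45.7 (26.5 to 83.9). Gmnn (geminin), which blocks a second round of licensing, was also higher in control members, at 76.0 against 6.56 CPM. Both the genes that license origins and their inhibitor were therefore abundant in the pooled members. Mcm10 was the 1 tested gene of these lists below the 2-fold line in control, with a ratio of 1.99.

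DNA synthesis genes differed in how much of their RNA noncycling barcodes kept. Rrm2, the small subunit of ribonucleotide reductase, had 286 UMIs in control members and 15 in the 876 noncycling barcodes, which is 207 against 1.17 CPM and a ratio of 177 (105 to 320). Tk1 (thymidine kinase) had 90.5 against 1.17 CPM, a ratio of 77.2, Asf1b, a histone chaperone, 75.3 against 1.09, and Uhrf1, which maintains DNA methylation, 61.5 against 0.938. The sliding clamp Pcna had 137 against 22.4 CPM, a ratio of only 6.12 (5.07 to 7.38), and Slbp, which binds histone mRNA, 70.9 against 29.1. Pcna and Slbp were thus measured in noncycling cells at an appreciable level, while Rrm2, Tk1, Asf1b and Uhrf1 were near 1 CPM there. In IL-1β, Pcna had 135 against 20.8 CPM and Rrm2 98.3 against 0.300, the latter from 16 and 8 UMIs.

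The cyclins split by the phase they act in. Ccnd1 (cyclin D1), which answers to growth signals before S phase, had 223 CPM in control members and 222 in noncycling barcodes, a ratio of 1.00 (0.891 to 1.13). Ccna2 (cyclin A2), of S phase and later, had 114 against 0.703 CPM, a ratio of 163 (83.5 to 362), and Ccnb2 (cyclin B2) 166 against 2.66, a ratio of 62.4 (43.4 to 92.3). Ccnb1 (cyclin B1) had 109 UMIs in members and 1 in all 876 noncycling barcodes, with the interval of the ratio from 178 upwards. So Ccnd1 was at the same level in both classes, while cyclins A and B were nearly absent from the noncycling one. Of the 13 cyclin and kinase genes tested in control, 7 were higher and none lower, among them Cks1b, the small subunit that docks Cdk substrates, with 457 against 40.4 CPM and a ratio of 11.3 (10.1 to 12.7). Cdk4, the partner of cyclin D, had 198 against 120 CPM. In IL-1β, Ccna2 had 20 UMIs in 8 members and 8 in 2224 noncycling barcodes, Ccnb1 24 and 4, and Ccnd1 221 against 135 CPM.

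Cdk inhibitors did not move as a block. Of the 10 tested in control, 5 were higher and 1 lower. Cdkn1a (p21), the inhibitor induced by p53, had 146 CPM in control members and 164 in noncycling barcodes, a ratio of 0.889 (0.765 to 1.03), and 240 against 214 CPM in IL-1β, a ratio of 1.12 (0.796 to 1.53). Cdkn2a had 10 UMIs in control members, or 7.24 CPM against 17.7, a ratio of 0.408 (0.193 to 0.764), and was the only lower one. Cdkn2c (p18), an inhibitor of Cdk4 and Cdk6, was higher instead, at 99.9 against 10.4 CPM, a ratio of 9.61 (7.52 to 12.3), as was Cdkn3, a phosphatase of Cdk1, with a ratio of 86.7. In IL-1β 2 of 9 tested inhibitors were higher and 1 was lower. Of the 10 p53 target genes tested in control none was higher or lower by 2-fold.

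Transcription factors of the cycle, activators and repressive pocket proteins together, were mostly more abundant in the members. Of 9 tested in control 6 were higher and none lower, with a median log2 ratio of 1.95. E2f1, the activator of S phase genes, had 76.7 against 6.95 CPM, a ratio of 11.0 (8.25 to 14.8), Foxm1, which acts on mitotic genes, 35.5 against 0.625, a ratio of 56.7, and Mybl2, of the MuvB complex, a ratio of 19.3. Rbl1 (p107), a pocket protein and itself an E2F target, had 39 UMIs in each class, or 28.2 against 3.05 CPM. Rbl2 (p130), the pocket protein of quiescent cells, had a ratio of 0.755, and Myc had no UMI in the 59 control members and 22 in noncycling barcodes. Of the 12 genes of replication stress and repair only 3 were tested in control, all of them higher.

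Genes of mitosis, other than those in the rule, were also higher in the members of both libraries. In control all 49 tested of 67 mitotic genes were higher, with a median log2 ratio of 5.47 and 7910 CPM against 1032 for the whole list. In IL-1β all 28 tested were higher, with a median of 3.99 and 8789 CPM against 1149. Among IL-1β barcodes with Sftpc of 2% or more, which keeps 2 members, 11 of 21 mitotic and 21 of 26 replication genes were higher. After thinning 9 of 11 and 14 of 17 were. The median log2 ratio over all genes tested was 1.93 and 1.33 at these settings, so the typical tested gene was itself past 2-fold. Nothing about mitotic or replication genes is therefore read from these 4 counts. Many mitotic genes reached 50 UMIs only through the members, so these medians are not set against those of the replication genes. Cdc20, the APC/C activator, had 297 CPM in control members and 5.47 in noncycling barcodes, a ratio of 54.3 (42.0 to 71.0), and 363 against 2.97 in IL-1β. Cenpa, the histone H3 variant that marks centromeres, had 212 against 1.88 CPM in control and 387 against 2.70 in IL-1β. Of the 59 Cdc20 UMIs in IL-1β members 47 were in cell 1, while the 63 Cenpa UMIs were spread over 6 of the 8 cells. Ckap2l, a spindle protein, had 61 UMIs in control members and none in 876 noncycling barcodes, so it was at least 188-fold higher (against a floor of 3 UMIs for the class).

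Structural genes that noncycling cells also use differed less. Stmn1, which destabilises microtubules, had 1195 against 123 CPM in control, a ratio of 9.72 (9.06 to 10.4), and the tubulins Tubb5 and Tuba1b had ratios of 5.97 and 5.48. H2afz, a histone H2A variant, had 2158 against 453 CPM, a ratio of 4.77 (4.56 to 4.98), and Hmgb2, a chromatin protein of dividing cells, 533 against 47.5, a ratio of 11.2 (10.1 to 12.5). Of the 18 genes of condensin and chromatin tested in control 15 were higher and none lower, with a median log2 ratio of 2.68. Noncycling barcodes held 1574 UMIs of Stmn1 and 5796 of H2afz too, so these genes separate the classes by level and not by presence. The nucleolar and growth list differed less again, with 4 of 12 genes higher in control and a median log2 ratio of 0.73: the nuclear transport GTPase Ran had 507 against 156 CPM, and the nucleolar protein Npm1 389 against 276.

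Beyond the lists, genes that were higher in control members by 2-fold or more were ranked by the lower bound of the ratio. Cdca3, which helps trigger mitotic entry, came out with 271 UMIs in members and 10 in noncycling barcodes (196 against 0.781 CPM, ratio 251, 134 to 530), in 46 of 59 members. Knstrn, a spindle protein, had 136 against 0.860 CPM and was seen in 49 members. Lockd, a long noncoding RNA downstream of Cdkn1b at chr6:134929092-134956798 (plus strand), had 259 against 1.95 CPM, a ratio of 133 (88.4 to 208), in 53 members, as many as Birc5. The replication-dependent histone gene Hist1h2ap had 118 against 1.49 CPM but was seen in 29 members only. Iqgap3, Aspm and Ube2t came next in that order, and Esco2, Apitd1, Hist1h2ak, Cdca2, Nrm, Tcf19, H1fx and Ccdc34 after them. In IL-1β Lockd had 25 UMIs in the 8 members and 25 in 2224 noncycling barcodes, and Cdca3 had 39 and 8.

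Upstream sequences of 6 genes are shown because replication and mitotic genes were higher together in the members, and the motifs known for each kind can be seen in them. The windows are the 160 bases before the RefSeq start on GRCm38.p6, all genes on the minus strand and written in their sense direction, shortened for Cdk1 and Cdc20 where GENCODE annotates an earlier start. Capitals mark the CHR element of mitotic genes (TTTGAA or TTCGAA, or TTCAAA on the other strand), the CCAAT box (CCAAT, or ATTGG on the other strand) and E2F motifs (TTTGGCGC, TTTCGCGC, TTTCCCGC or TTTGCCGC, or the reverse complements GCGCCAAA, GCGCGAAA, GCGGGAAA and GCGGCAAA). Top2a and Cdk1 are of the rule, Cdc20 and Ckap2l are mitotic genes outside it, and Mcm6 and Rbl1 belong to the licensing and transcription factor lists:
Top2a (chr11:99024190-99024349): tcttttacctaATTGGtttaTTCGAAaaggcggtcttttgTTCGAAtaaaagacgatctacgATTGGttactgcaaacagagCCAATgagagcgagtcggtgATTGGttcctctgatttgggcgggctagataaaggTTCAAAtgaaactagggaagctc
Cdk1 (chr10:69352939-69353072): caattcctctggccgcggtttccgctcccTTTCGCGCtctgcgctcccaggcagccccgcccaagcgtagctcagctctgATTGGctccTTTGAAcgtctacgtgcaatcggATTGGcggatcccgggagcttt
Cdc20 (chr4:118437353-118437503): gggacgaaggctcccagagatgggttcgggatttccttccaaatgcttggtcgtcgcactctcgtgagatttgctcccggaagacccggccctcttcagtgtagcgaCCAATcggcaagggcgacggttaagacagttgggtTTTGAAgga
Ckap2l (chr2:129297213-129297372): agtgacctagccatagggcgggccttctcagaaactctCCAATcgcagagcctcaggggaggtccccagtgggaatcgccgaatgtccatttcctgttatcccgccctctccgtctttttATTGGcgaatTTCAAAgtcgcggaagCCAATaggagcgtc
Mcm6 (chr1:128359706-128359865): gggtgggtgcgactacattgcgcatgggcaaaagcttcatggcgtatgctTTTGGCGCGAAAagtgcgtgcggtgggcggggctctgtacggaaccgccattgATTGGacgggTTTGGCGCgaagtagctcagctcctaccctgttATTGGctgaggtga
Rbl1 (chr2:157204535-157204694): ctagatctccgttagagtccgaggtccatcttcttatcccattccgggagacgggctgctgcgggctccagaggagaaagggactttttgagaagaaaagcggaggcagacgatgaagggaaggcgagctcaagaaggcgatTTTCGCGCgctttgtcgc

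In these stretches Top2a, Cdk1, Cdc20 and Ckap2l each hold a CHR and a CCAAT match, and Cdk1 also holds an E2F match. Mcm6 holds 3 E2F matches, of which 2 overlap in the run TTTGGCGCGAAA, and 2 CCAAT matches, and Rbl1 holds 1 E2F match. Over the 250 bases before the start, the CHR was found in 35.0% of the windows of the mitotic lists (21 of 60), 17.1% of those of the replication lists (7 of 41) and 17.2% of all 32851 windows in the RefSeq table. The E2F motifs were found in 3.33%, 24.4% and 1.86% of the same windows, and the CCAAT box in 70.0%, 58.5% and 33.9%. For 54 of 67 mitotic and 34 of 41 replication genes a window was matched by symbol. A match is a description of the letters and not a bound site.

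Members differed from each other in how much replication and mitotic RNA they held. The 41 replication genes made up a median of 14.1 UMIs per 10000 in control members and 2.36 in noncycling barcodes, whose highest value was 19.1, and 28 of 59 members lay above every noncycling barcode. The 67 mitotic genes made up a median of 87.8 per 10000 in control members and 9.56 in noncycling barcodes, whose highest value was 36.9, and 43 of 59 members lay above all of them. The rule genes are late genes of the cycle themselves, so nothing is read from the order of the 2 counts. By the sum of the rule genes, which chose the members and so gives a description only, the 22 members with sums of 3 to 9 had medians of 5.78 (replication) and 34.4 (mitotic) per 10000, the 11 with 10 to 19 had 12.9 and 66.5, and the 26 with 20 or more had 22.8 and 119.4. Sftpc medians in these 3 bands were 7.96%, 7.87% and 6.81%, and the first and last band had medians of 18176.5 and 26019.5 UMIs.

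The 15 control members with the most replication UMIs (median 47.5 per 10000, 40.3 to 86.8) were set beside the 15 with the fewest (median 4.32, 2.37 to 5.26) for genes of other lists, as a description of cells chosen by their values. Ccne1 and Ccne2 (cyclin E), which start DNA synthesis, had 22 and 20 UMIs in the replication-rich members and none in the others, where a count of 0 allows up to 8.85 CPM. E2f1 had 183 against 5.90 CPM, Hist1h2ap 283 against 2.95, and Esco2, which acetylates cohesin in S phase, 74.3 against 0. The mitotic list as a whole was also higher in the replication-rich members, with a median of 90.4 UMIs per 10000 against 31.3, and so was the sum of the rule genes, with a median of 30.0 UMIs against 6. Ccna2 (111 and 56.0 CPM) and Mki67 (152 and 79.6 CPM) followed that order, and Plk1, a mitotic kinase, differed little (37.2 and 26.5 CPM). Some late genes went the other way: Ccnb2 had 65.7 CPM in the replication-rich members and 257 in the replication-poor ones, Cenpa 74.3 and 274, Cdkn3 31.4 and 106, and Cdc20 186 and 292. Of the rule genes, whose UMIs admitted these members, Ube2c had 177 and 375 CPM and Top2a 320 and 35.4. The replication-poor members were thus lower in cycle RNA as a whole, with these late genes as exceptions. Sftpc was the same in the 2 groups, with medians of 8.15% and 8.06%.

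**Figure D3:**
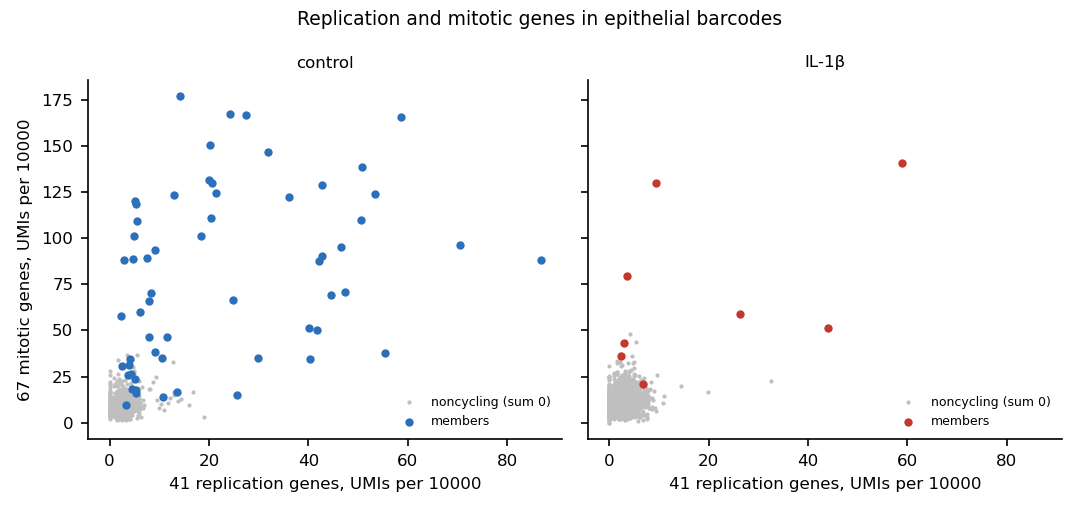
UMIs of 67 mitotic genes (y axis) against UMIs of 41 replication genes (x axis), both per 10000 UMIs of a barcode, for the cycling members (coloured) and the noncycling epithelial barcodes (grey) of both libraries. Control members spread along both axes (medians 14.1 and 87.8), and 43 of the 59 lie above the highest mitotic value of the control noncycling barcodes, 36.9.

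The alveolar genes of control members stayed close to those of noncycling cells. None of the 15 AT2 marker genes tested was higher or lower by 2-fold, with a median log2 ratio of -0.17, and the list summed to 127935 CPM in members and 158622 in noncycling barcodes. Sftpc had 76151 against 96942 CPM, a ratio of 0.785 (0.781 to 0.791), Sftpb, another surfactant protein, 10397 against 11451, and Lyz2, the lysozyme of AT2 cells, 16639 against 22082. Lamp3, of the lamellar bodies that store surfactant, had 929 against 863 CPM, and the lineage factor Nkx2-1 a ratio of 0.948. Etv5, which keeps AT2 cells in their state, had 214 against 286 CPM. Members thus held these genes within 2-fold of noncycling barcodes per UMI, beside their larger totals. Sterol and fatty acid genes also stayed within 2-fold, with none of 11 higher or lower in control.

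Genes of the AT1 fate and of the intermediate state between AT2 and AT1, whose cells are called DATPs (damage-associated transient progenitors), tended to be lower in control members. Of 13 AT1 genes tested 4 were lower and none higher (median log2 ratio -0.48), and of 9 DATP genes 3 were lower and none higher (median -0.61). Akap5, an anchoring protein and AT1 marker, had 47.1 against 129 CPM, and Hopx, a homeodomain protein of AT1 cells, 14 against 298 UMIs, a ratio of 0.435. Among DATP genes, the tight junction protein Cldn4 had 4 UMIs in members and 210 in noncycling barcodes, a ratio of 0.176, and Lgals3 (galectin 3) 137 against 276 CPM, while Krt8, a keratin, was within 2-fold at 416 against 325. Few members therefore carried Cldn4 or Hopx, though the rule itself leaves out AT1-rich barcodes that hold Sparc. Without Sparc in the rule 264 more control and 187 more IL-1β barcodes counted as epithelial, with AT1 list medians of 249.7 and 152.8 per 10000 against 19 and 12.5 in the epithelial class, and 3 and 0 of them were cycling.

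Signals of inflammation and growth factor response were mixed in control members. Of 7 NF-κB targets and chemokines tested 4 were lower and 1 higher: Nfkbia, the inhibitor that NF-κB induces, had 42.7 against 96.0 CPM and the chemokine Cxcl5 18.1 against 78.1, whereas the chemokine Cxcl2 had 24.6 against 10.5, with 79.4% of its 34 UMIs from 1 of the 5 members that had any. Axin2, a target of Wnt signalling, had 17 and 70 UMIs, which is 12.3 against 5.47 CPM, a ratio of 2.25 (1.24 to 3.86), and the receptor Fgfr2 had 216 against 221 CPM. Axin2 was the only one of 10 tested growth factor genes that was 2-fold higher, and none was lower. In the primed AT2 list 1 of 8 genes was higher, Ifitm3, an interferon-induced membrane protein, with 357 against 163 CPM, and 208 of its 493 UMIs came from 1 member. Among the 10 ranked genes that were lower in control members were Il4i1, an amino acid oxidase (2 against 195 UMIs, ratio 0.0950, 0.0114 to 0.348), Clic3, a chloride channel protein (44.9 against 147 CPM, ratio 0.304), Cd24a, a surface glycoprotein (12 against 453 UMIs, ratio 0.245), and S100a6, a calcium-binding protein (117 against 311 CPM).

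Markers of other cell types were at low levels in control members. Of the stromal markers 5 of 10 were tested and none was higher or lower by 2-fold, with 515 CPM in members and 554 in noncycling barcodes, most of it Sparc, which is in the rule, so that this level was set by the selection. The immune list had 13 against 12.5 CPM, most of it Cd68, with Ptprc and Fcer1g at 0 in the members, the endothelial list 2.17 against 1.88 with Cdh5 and Kdr at 0, and the mesothelial list 0 against 0.391. The airway list was lower, at 83.2 against 427 CPM, with Cyp2f2 leading it and Foxj1, Krt5, Trp63, Scgb3a1 and Scgb3a2 at 0 in the members. Scgb1a1, the club cell secretoglobin, had 48 UMIs in members and 4080 in noncycling barcodes, a ratio of 0.109 (0.0802 to 0.145). Control members thus carried immune and endothelial markers at about the level of noncycling barcodes and fewer airway markers.

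The 8 IL-1β members did not form 1 kind of cell. Cells 1 to 3 held 90.1% of the UMIs of the rule genes and 80.7% of those of the mitotic genes. Cells 1, 2 and 6, the 3 with the most replication UMIs, held 86.8% of those. The top 3 of 59 control members for each list held 17.3% (rule), 12.4% (mitotic) and 19.3% (replication). Replication genes made up 9.34, 59.0, 3.57, 2.93, 26.3, 44.1, 6.81 and 2.32 UMIs per 10000 in cells 1 to 8, and 17 of 2224 noncycling barcodes reached the members' median of 8.07. Mitotic genes made up 130, 141, 79.2, 43.3, 58.8, 51.1, 21.2 and 36.4 per 10000, and none of the 2224 reached the members' median of 55.0. Cells 2, 5 and 6 were therefore high in replication RNA, cells 3, 4 and 8 were low in it, and cells 1 and 2 were the highest in mitotic RNA. Cdc20 had 47 UMIs in cell 1 and none in cell 2, while Pcna had 2 and 15, and Rrm2 none and 14.

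AT2 markers of the IL-1β members were low in most but not all of them. Of 15 AT2 genes tested 9 were lower than in noncycling barcodes and none higher, with a median log2 ratio of -1.04 and 30418 against 127805 CPM for the list. Sftpc had 10983 against 61734 CPM, a ratio of 0.178 (0.170 to 0.186), and Lyz2 4862 against 30883, a ratio of 0.157. By cell, the AT2 list made up 271, 150, 118, 129, 209, 873, 408 and 672 UMIs per 10000, against a noncycling median of 1309. Cells 6 and 8 were thus the closest to noncycling AT2 cells, and cells 2, 3 and 4 were the farthest from them. Over all 8 members the log2 ratio of Sftpc was -2.49. Under the stricter epithelial rule (epithelial sum at 5 or more times the stromal sum) it was -3.52. Among barcodes with Sftpc of 2% or more in both classes, which keeps cells 6 and 8, it was -1.01. That cut acts on Sftpc itself, so this last value was shaped by the selection and nothing is read from it. Sftpb had 220 UMIs in cell 1 and 2 in cell 5, and Lyz2 322 in cell 6 and 23 in cell 5. Of 11 sterol and fatty acid genes 3 were lower, with 2286 against 6152 CPM for the list, and cell 6 alone reached 114 UMIs per 10000 of it.

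Cell 3 carried airway secretory genes and cell 2 another set. Scgb3a1 and Scgb3a2, secretoglobins of airway secretory cells, had 1600 and 548 UMIs in cell 3 and none in the other 7, as did Tff2 (356), a mucosal trefoil peptide, Reg3g (324), an antibacterial lectin, and Bpifb1 (26). This cell held 99.5% of the airway marker UMIs of the 8 members. Among noncycling epithelial barcodes of the library 10.8% had a UMI of Scgb3a1 and 2.52% one of Scgb3a2, against 14.2% and 2.46% of noncycling stromal-side barcodes, so low counts of these genes are at the background of free RNA there. Ccl20, a chemokine, had 5, 600, 23, 169 and 20 UMIs in cells 1 to 5 and none in cells 6 to 8, with a UMI in 10.5% of noncycling epithelial and 10.6% of stromal-side barcodes. Spib, an Ets factor, had 29 UMIs in cell 2 and 1 in cell 4, Serpinb1a, an elastase inhibitor, 114 and 32, Abca13, a transporter, 22 and 11, and Tspan3 77 and 44. Cells 2 and 4 thus shared several genes that had few or no UMIs in the other members. The high IL-1β ratios of Ccl20 (38.8), Tff2 (115), Reg3g (28.7), Spib (65.5) and Serpinb1a (29.1) each come mostly from 1 or 2 of the 8 cells.

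Stromal, immune, endothelial and mesothelial markers were at low levels in the IL-1β members. The stromal list had 375 against 693 CPM with 1 of 5 tested genes higher and 1 lower, the immune list 18.4 against 42.4, the endothelial list 0 against 1.54 and the mesothelial list 30.7 against 17.4. Of 12 AT1 genes tested 5 were lower and none higher (median log2 ratio -0.71), and of 10 DATP genes 2 were lower and none higher (-0.20). In the primed AT2 list 2 of 8 were lower and 1 higher, with Lcn2 (lipocalin 2), a secreted iron-siderophore binder, at 6988 against 16839 CPM. Lcn2 was present in every one of the 8 cells, with 55 to 289 UMIs. Every noncycling epithelial barcode of the library also had a UMI of Lcn2, so its presence in the members is not read as expression.

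**Figure D4:**
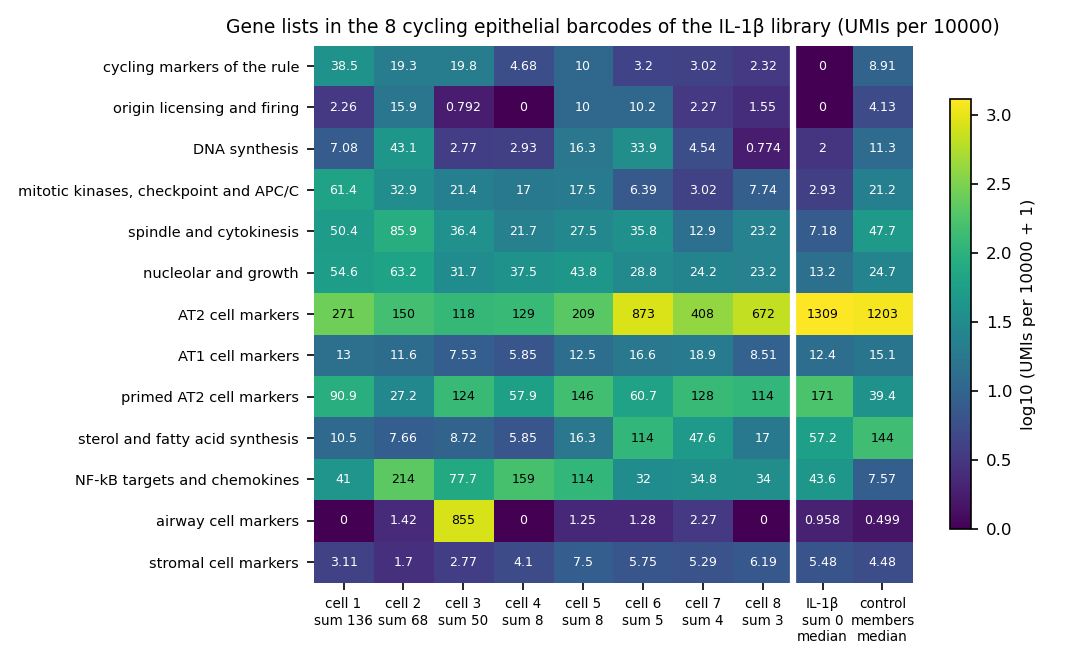
Heat map of summed UMIs per 10000 (colour, log scale) of 13 gene lists in each of the 8 IL-1β cycling members, beside the median of noncycling IL-1β epithelial barcodes and the median of control members. The airway list stands out in cell 3, and the AT2 list is highest in cells 6 and 8 (873 and 672) yet below the noncycling median of 1309 in all 8.

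Clic3, Aox3 and Snhg11 were lower in members of both libraries. Clic3 had no UMI in the 8 IL-1β members and 3350 in noncycling barcodes, Aox3, an aldehyde oxidase, had 1 against 2924, and the noncoding RNA Snhg11 had a ratio of 0.158 in IL-1β and 0.367 in control. Dmkn (dermokine) had 11 UMIs in IL-1β members, a ratio of 0.113, but a ratio of 2.06 in control. Elovl1, of fatty acid elongation, had 221 against 1092 CPM in IL-1β. Nucleolar genes were higher in IL-1β members, with 9 of 12 above 2-fold and a median log2 ratio of 1.73: Nop58 had 31 UMIs in members, or 191 against 18.7 CPM, a ratio of 10.2 (6.86 to 14.7), Npm1 953 against 280 and Ncl (nucleolin) 461 against 170. Of the 31 Nop58 UMIs 18 were in cell 2 and 9 in cell 1. Nrarp, a Notch target, had 11 and 54 UMIs in IL-1β, a ratio of 33.4, and 20 and 33 in control, a ratio of 5.61. Of the 11 Nrarp UMIs in IL-1β members 6 were in cell 3. Saa3, an acute phase protein, did not differ by class, at 3036 against 3191 CPM.

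Set against the control members, the IL-1β members had 351 of 3981 genes (8.82%) higher and 528 (13.3%) lower by 2-fold, and the noncycling barcodes 1009 of 11578 (8.71%) higher and 361 (3.12%) lower. In the pooled members replication genes had ratios near 1, with none of 28 higher, 3 lower and a median log2 ratio of 0.01, and mitotic genes likewise, with 2 of 47 higher, 4 lower and a median of 0.29. Pcna had an IL-1β to control ratio of 0.989, Mcm6 of 1.07, Cks1b of 1.06 and Cdc20, mostly from cell 1, of 1.22, while Rrm2 had 0.475. These are ratios of pooled UMIs, of which cell 2 alone supplied 58.3% for the replication genes and cells 1 to 3 80.7% for the mitotic genes. The medians over members were lower in IL-1β, at 8.07 against 14.1 replication and 55.0 against 87.8 mitotic UMIs per 10000.

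Inflammatory genes were apart between the libraries in both classes, and AT2 markers mostly among the members. AT2 markers were lower in IL-1β members, with 10 of 15 lower and a median log2 ratio of -1.52. In noncycling barcodes 11 of the 15 were within 2-fold, 3 were lower and 1 was higher, with a median of -0.53. Sftpc had an IL-1β to control ratio of 0.144 in members and 0.637 in noncycling barcodes, and Lyz2 of 0.292 and 1.40. NF-κB targets and chemokines were higher in all 7 tested among members (median log2 ratio 3.43) and in 8 of 10 among noncycling barcodes (2.11): Nfkbia had ratios of 10.8 and 3.54, and Cxcl1 of 14.2 and 4.77. Of the 75 Nfkbia UMIs in IL-1β members 33 were in cell 2 and 22 in cell 4, and of the 45 Cxcl1 UMIs 33 were in cell 4, so the ratios of the members rest on these cells. Saa3 had the same ratio, 5.79, in both classes. Among nucleolar genes 5 of 12 were higher in members (median 0.70) and none of 12 in noncycling barcodes (0.00), with Nop58 at 4.39 and 1.19. The differences between the classes in these ratios were not tested. Leaving out members with Sftpc under 2%, which keeps 2 of the 8 in IL-1β, moved the AT2 median to -0.65. Sftpc is itself in the AT2 list, so this cut selects on what is measured.

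The 24 control stromal-side barcodes that met the cycling threshold were less strongly marked. Their sums of the rule genes had a median of 4 UMIs, and 3 of the 24 had 10 or more. In the epithelial members that median was 15, and 37 of 59 had 10 or more. With Cdk1 left out of the rule, 12 control stromal-side barcodes met the threshold in place of 24. On the epithelial side 56 did in place of 59, so many of the stromal-side barcodes were admitted only through Cdk1. Medians of the 24 were 5.11 replication and 19.6 mitotic UMIs per 10000, against 14.1 and 87.8 in the epithelial members. Noncycling stromal-side barcodes had 2.85 and 15, and the Sftpc median of the 24 was 0.296%. Between the 2 kinds of cycling cells 813 of 5176 genes (15.7%) were higher and 702 (13.6%) lower in the epithelial ones. Of 30 replication genes 24 were higher (median log2 ratio 1.56) and of 47 mitotic genes 40 (2.05), none lower. Cdc20 had 297 against 20.2 CPM and Stmn1 a ratio of 7.01. Within the stromal side, cycling over noncycling barcodes gave 314 of 10701 genes (2.93%) higher and 1007 (9.41%) lower, with 17 of 26 replication genes higher (median 1.32) and 9 of 18 mitotic genes (1.02). With 5 or more UMIs as the threshold, which leaves 9 stromal-side barcodes, the epithelial to stromal-side medians were 0.72 and 1.03. At that threshold 11 of 26 replication and 23 of 45 mitotic genes were higher in the epithelial members. The median log2 ratio over all genes tested was 0.06 there, and the share of all genes that were higher was not taken.

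Cyclin D genes differed between the 2 kinds of cycling cells by family member. The 2 kinds differ in their side of the rule as well, so these ratios do not part a trait of cycling from a trait of the side. Ccnd2 had 13.8 CPM in epithelial members and 665 in cycling stromal-side barcodes, a ratio of 0.0207, while Ccnd1 had a ratio of 0.752. Cdkn1a had 146 against 496 CPM. Among secreted and matrix genes, Saa3 had 525 against 15534 CPM and the collagen gene Col1a2, which is in the rule, 31.9 against 1401. Control members thus carried Ccnd1 with little Ccnd2, and the stromal-side cycling barcodes carried both, while the 8 IL-1β members had 14 UMIs of Ccnd2, 12 of them in cell 3, and 36 of Ccnd1.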

How the data were processed

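Lung organoid cells of 1 control and 1 IL-1β culture were profiled by droplet-based 3′ scRNA-seq. Per the study's methods, the authors aligned reads to GRCm38 with Cell Ranger. The deposited values are whole-number UMI counts of 27998 genes per barcode, taken from the values themselves to be raw. UMIs were summed by symbol (65 symbols occur more than once), classes were formed by the rule given above, and sums over a class were given as CPM with exact Poisson 95% intervals, ratios with exact conditional binomial intervals and shares with Clopper-Pearson intervals; differences of shares have Newcombe intervals. A count of 0 was bounded by 3 UMIs. The 14 rule genes were left out of gene counts, and genes needed 50 UMIs over both classes. The members, the 25 gene lists (318 genes) and the comparisons were chosen with earlier results of these data known. Genes named were list members with the most UMIs or the ratio farthest from 1, plus the 15 highest and 10 lowest genes outside the lists by the bound of the ratio's interval nearest 1, without mitochondrial, ribosomal protein and predicted genes; other list members, and genes given for single cells or subsets of members, were chosen after their values were seen.

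All deposited barcodes were kept (lowest 4605 and 4975 UMIs). Cutoffs of the study on genes and UMIs would remove 18 and 7 barcodes, 1 of them a member. The libraries shared 11 barcode sequences, none a member. Scrublet scores above 0.7 marked 2 and 1 barcodes (0.0952% and 0.0326%). No barcode was removed by that score, so any doublets remain, and their share was not measured. Scores were used only as ranks. Alternatives were depth thinning, other UMI thresholds, a stricter epithelial rule, leaving out genes of the rule, Sftpc-low or high-scoring barcodes, and other count minimums. Gene positions are from GENCODE M21 on GRCm38, and upstream sequences from RefSeq on GRCm38.p6. Python 3.11.15, numpy 2.4.6, scipy 1.17.1, pandas 2.3.3, scanpy 1.11.5 and matplotlib 3.10.9 were used, and the ratio calculation was tested on simulated counts.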

Additional observations from a re-analysis of the deposited data

Results flagged for a closer look

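Cycling over noncycling ratios of 3 genes pointed in opposite directions in the 2 libraries, which was not tested beyond the counting intervals. Cd24a, a surface glycoprotein, had a ratio of 7.18 in IL-1β (20 against 456 UMIs, 10 of the 20 in cell 2) and 0.245 in control (12 against 453 UMIs). Dmkn had a ratio of 0.113 in IL-1β (11 against 15909 UMIs) and 2.06 in control (207 against 933 UMIs, with 46.4% of the 207 in 3 members and a UMI in 37 of 59). Ifi27l2a, an interferon-induced gene, had 0 UMIs in the 8 IL-1β members against 2619 in noncycling barcodes, with the ratio's interval reaching 0.231, and a ratio of 3.11 in control (361 against 1077 UMIs, with 40.7% of the 361 in 1 member and a UMI in 29 of 59 members).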

How the results depend on the processing

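No value 2 or more times apart changed direction among the 259 recomputed. Etv5 in IL-1β, whose interval holds 1, went from -0.91 to 0.20 on the log2 scale after thinning. Of 160 values for shares and list medians, 140 stayed within 1.5 times of the reported value or its interval and 20 moved, and of 99 values for Sftpc, Lyz2 and Etv5 85 stayed and 14 moved. The control share was 3.94% after thinning to 4000 UMIs and 7.86% with the epithelial sum at 5 or more times the stromal sum, and the difference to IL-1β was then 3.76 and 7.29 points. With 1 or more UMIs after thinning, a threshold added after seeing the data, the shares were 7.98% and 1.98%, beside 7.49% and 5.01% on the stromal side. Median log2 ratios of cycling over noncycling barcodes were sensitive to the count minimum and the depth: with 200 or more UMIs the control replication and mitotic medians were 2.38 and 2.52, and the control mitotic median was 2.14 after thinning. The IL-1β mitotic median was 3.15 among barcodes with Sftpc of 2% or more (1.93 over all genes tested there), 3.08 under the stricter epithelial rule, 2.03 after thinning (1.33 over all genes), 5.43 with 10 or more UMIs and 1.96 with 200 or more. The IL-1β to control AT2 median in members was -0.65 at Sftpc of 2% or more, a cut that itself uses an AT2 gene. Between cycling epithelial and stromal-side barcodes the replication and mitotic medians were 0.72 and 1.03 with 5 or more cycling UMIs, the mitotic median was 1.05 after thinning, and the AT2 median was 5.00 under the stricter rule and 3.52 without the highest 5% of scrublet scores. The causes of these moves were not tested. After thinning, no replication gene reached the count minimum between members of the libraries or between the 2 kinds of cycling cells, so these have no value. No paired analysis was possible because each group is 1 library. The 8 IL-1β members limit every statement on that library.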

Other observations

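The gene 2810417H13Rik, outside the naming rule and picked after its values were seen, had 423 UMIs in control members and 18 in noncycling barcodes (306 against 1.41 CPM, ratio 218), and 44 and 27 UMIs in IL-1β.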
